A study of Mus musculus with 42 samples.

Results

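Ubiquitin ligases linked to muscle atrophy were followed in TA (tibialis anterior) muscle by RNAseq. The 10 genes were given as a list of names, Fbxo32, Trim63, Fbxo30, Fbxo21, Fbxo31, Trim54, Trim55, Trim32, Nedd4 and Ube4b, and were found by symbol among the 13809 genes of the deposited table. All 10 genes had a value of at least 1 in every library, with a lowest value of 6.50 and a highest of 2009. The list was drawn up with earlier results of these data known, and Fbxo32 and Trim63 were themselves named by the study from these samples, so that their rise is not independent evidence of its direction. All muscles came from male C57BL/6J mice aged 4 months, and the 42 libraries fall into 11 groups sequenced in 2 sets. Set 1 (22 libraries) holds WT mice, Sesn1SkM-Tg mice, which carry human Sesn1 under the MCK promoter, and Sesn2SkM-Tg mice, which express Sesn2 from a Tet-regulated promoter driven by MCK-tTA. Set 2 (20 libraries) holds WT mice and Sesn1-/- mice, in which the gene is missing from all tissues and not from muscle alone. Each genotype was examined in the basal state, in mice with no intervention, and after 3 days of immobilization of the right hindlimb with rigid sticks. Set 2 also holds WT muscle after denervation, in which a piece of the sciatic nerve was removed. The time since denervation was taken as 3 days, whereas the study's methods name 3 or 10 days without assigning them to libraries. There were 4 libraries in each group except 3 for immobilized WT muscle of set 1 and 3 for immobilized Sesn1SkM-Tg muscle.

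A ubiquitin ligase (E3) brings a substrate protein together with an E2 enzyme that carries ubiquitin, and chains of ubiquitin direct the substrate to the proteasome. In a wasting muscle this is the main route by which contractile proteins are degraded, and the genes Fbxo32 and Trim63 are the most used RNA markers of atrophy because their transcripts rise when FoxO factors are active. F-box proteins are the substrate receptors of SCF ligases, which are built on a cullin scaffold. TRIM proteins carry a RING finger that binds the E2 directly.

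Fbxo32 encodes atrogin-1 (MAFbx), an F-box protein of heart and skeletal muscle, and lies at chr15:58175879-58214932 on the minus strand (GRCm38). Fbxo30 (chr10:11281330-11298052, plus strand) encodes an F-box protein known as MUSA1, and Fbxo21 (chr5:117976730-118010201, plus strand) encodes the F-box protein known as SMART. Fbxo31 (chr8:121549440-121578806, minus strand) encodes an F-box protein best known for the degradation of cyclin D1. The MuRF family of sarcomere-associated RING proteins has 3 members, Trim63 (MuRF1; chr4:134315120-134329629, plus strand), Trim55 (MuRF2; chr3:19644474-19692421, plus strand) and Trim54 (MuRF3; chr5:31116712-31137630, plus strand). Trim32 (chr4:65604986-65616238, plus strand) encodes a ligase mutated in a limb-girdle muscular dystrophy, Nedd4 (chr9:72662346-72749852, plus strand) a HECT-domain ligase of membrane proteins, and Ube4b (chr4:149328416-149426749, minus strand) a U-box protein that extends ubiquitin chains.

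RefSeq promoters of the GRCm38.p6 build were at hand for 8 of the 10 genes, as 9 stretches of 250 bases before a transcript start. No promoter of Fbxo32 or Trim55 was at hand, so neither gene was searched. The 9 stretches were searched on both strands for GTAAACA (FoxO core), CAAAACA (insulin response element core), AGAACA (the core of a glucocorticoid response element) and CAGCTG (an E-box). The promoters of Trim63, Trim54 and Fbxo30 are printed because the first gene rose most, the second is its family member with no called rise in 3 of the 5 immobilized groups, and the third rose with denervation and holds none of the 4 motifs. The Fbxo30 stretch lies before the RefSeq transcript start but inside the gene span given above, so bases before that span were not searched. Capitals mark the motif matches.
Trim63, chr4:134314870-134315119, plus strand: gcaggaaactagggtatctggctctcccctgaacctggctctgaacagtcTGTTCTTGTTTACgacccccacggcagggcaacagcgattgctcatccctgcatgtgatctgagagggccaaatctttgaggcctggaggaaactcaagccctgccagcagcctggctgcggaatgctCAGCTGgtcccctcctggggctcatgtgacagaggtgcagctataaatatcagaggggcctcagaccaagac
Trim54, chr5:31116362-31116611, plus strand: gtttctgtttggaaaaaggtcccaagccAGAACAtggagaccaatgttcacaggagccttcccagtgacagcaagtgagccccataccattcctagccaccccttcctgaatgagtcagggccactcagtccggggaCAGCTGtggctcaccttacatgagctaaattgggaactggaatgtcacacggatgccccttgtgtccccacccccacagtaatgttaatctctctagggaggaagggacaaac
Fbxo30, chr10:11281337-11281586, plus strand: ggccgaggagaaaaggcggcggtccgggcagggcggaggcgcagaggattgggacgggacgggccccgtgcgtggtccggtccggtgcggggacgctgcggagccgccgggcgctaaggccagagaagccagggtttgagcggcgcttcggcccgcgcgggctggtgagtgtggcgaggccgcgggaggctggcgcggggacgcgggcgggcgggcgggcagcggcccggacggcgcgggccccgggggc
In the Trim63 promoter AGAACA, read on the opposite strand, began 200.0 bases before the start and ran directly into GTAAACA at 194 bases, also on the opposite strand, and CAGCTG lay at 72 bases. The Trim54 promoter held AGAACA at 222 bases and CAGCTG at 113 bases before the start, and no GTAAACA. That stretch ends at base 31116611, before the gene span given above begins, and the bases in between were not searched. Of the other promoters, that of Trim32 held CAGCTG at 107 bases and the second of the Nedd4 promoters AGAACA at 216 and CAGCTG at 139 bases. CAAAACA was in none of the 9. Among 32851 mouse promoters of the same length, 3.17% held GTAAACA, 5.56% CAAAACA, 16.1% AGAACA and 13.0% CAGCTG. Letters in these windows are a description and say nothing of binding.

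The values are normalized read counts on a linear scale, the library sums ranged from 722430 to 1276769, and replicates correlated at 0.959 to 0.991 on the log2 scale. Sesn1 was 41.6 to 77.6 in basal Sesn1SkM-Tg against 15.0 to 22.1 in basal WT libraries, and Sesn2 was 6.54 to 13.0 in basal Sesn2SkM-Tg against 2.18 to 3.39. In set 2 Sesn1 was 8.41 to 10.05 in basal Sesn1-/- against 22.5 to 29.7 in WT muscle. In immobilized muscle the library labelled Sesn1-/- replicate 1, at 37.3, lay above the lowest WT library, at 30.7, and the other 3 lay between 19.4 and 27.7. Within Sesn1-/- muscle Sesn1 rose with immobilization by 1.36 in log2(value + 1) (limma adjusted p = 3.0e-06). It also rose in WT muscle of set 2, by 0.63 (limma adjusted p = 0.0072). The immobilization effect on Sesn1 in Sesn1-/- minus that in WT muscle, 0.73, was not called (limma adjusted p = 0.43). The difference of immobilized Sesn1-/- from WT muscle, -0.66, was not called (limma adjusted p = 0.069). The 6 muscle fiber markers (Acta1, Ckm, Myh4, Myh1, Myh2, Myh7) summed to 87922 to 118604 in the basal and 54216 to 78265 in the immobilized libraries of set 1, without overlap. Taken singly, Ckm and Myh4 were called lower with immobilization in each genotype of set 1. Acta1, Myh1 and Myh7 were not called there, and Myh2 was called higher in Sesn1SkM-Tg muscle (2.21, limma adjusted p = 0.038). In set 2 the markers summed to 35969 to 47895 after denervation against 95759 to 105941 in basal WT muscle. The 6 macrophage and leukocyte markers found of 7 listed summed to 34.6 to 51.7 in basal and 161.8 to 341 in immobilized WT muscle of set 1, and to 27.7 to 129 and 94.5 to 190 in set 2. The 6 were all called higher in set 1 WT, 2 of 6 in set 2 WT and 1 of 6 after denervation. Of 4 fibroblast, 3 Schwann cell and 3 endothelial markers, 3, 2 and 1 were called higher in immobilized WT muscle of set 1, where the endothelial marker Kdr was called lower (-0.72). The 3 endothelial markers were called lower in immobilized WT muscle of set 2 (-0.49 to -1.38), and 2 fibroblast, 1 Schwann cell and 3 endothelial markers after denervation. None of these markers was at 0 in any library, and their part in the results was not tested. In whole muscle, fewer cells of a type and less RNA per cell cannot be told apart.

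Fbxo32 and Trim63 rose in WT muscle in all 3 comparisons with the basal state, with the highest fitted change after denervation. Each change is given as the difference in log2(value + 1) with its standard error (SE) and limma adjusted p, and the threshold for a call was an adjusted p under 0.05 together with a change of 0.25 or more in size. In basal WT muscle of set 2, Fbxo32 was 367, 288, 252 and 390.0 in the 4 libraries, and after denervation it was 1186, 1161, 1597 and 2009. The immobilized WT libraries of that set held 1020.0, 1906, 1194 and 863. Every treated library was thus above every basal one, and the denervated and immobilized ranges overlapped. The rise of Fbxo32 was 2.18 (SE 0.40, 4.53-fold, adjusted p = 8.9e-05) after denervation and 1.90 (SE 0.40, 3.72-fold, adjusted p = 0.00091) after immobilization. Between denervated and immobilized muscle the difference was 0.28 with a 95% interval of -0.55 to 1.12 (adjusted p = 0.60), and with quantile normalization it was 1.04 and called (adjusted p = 0.047).

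Trim63 behaved alike in these libraries. Its values were 163, 173, 147 and 222 in basal, 521, 1069.8, 939 and 589.5 in immobilized and 752, 659, 998 and 1175 in denervated WT muscle of set 2. Again no basal library reached a treated one. The rise was 2.09 (SE 0.28, 4.26-fold, adjusted p = 7.7e-06) after immobilization and 2.32 (SE 0.28, 4.98-fold, adjusted p = 4.5e-07) after denervation, and the treatments differed by 0.23 with a 95% interval of -0.35 to 0.80 (adjusted p = 0.54). With quantile normalization that difference was 0.72 and called (adjusted p = 0.036).

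In set 1 the basal WT libraries were less uniform. Fbxo32 was 878, 668, 336 and 201 in basal WT muscle, a wider range than in any other basal group, and 1357, 782 and 799 after immobilization. Basal replicate 1 was higher than immobilized replicates 2 and 3, so the groups overlapped. Fbxo32 rose by 1.08 (SE 0.36, 2.12-fold, adjusted p = 0.027), and this call was lost without basal replicate 3 (0.95, adjusted p = 0.073), basal replicate 4 (0.70, 0.088), immobilized replicate 1 (0.82, 0.12) or immobilized replicate 3 (1.21, 0.053), and with the compared groups fitted alone (1.08, 0.11). Trim63 was 309, 297, 183 and 179 in basal and 1249, 537 and 534 in immobilized WT muscle, with no overlap, and rose by 1.60 (SE 0.30, 3.03-fold, adjusted p = 0.00064). The difference between the sets in the WT immobilization effect was 0.81 for Fbxo32 (95% interval -0.35 to 1.97, adjusted p = 0.42) and was not called for Trim63 either (0.49, adjusted p = 0.54).

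**Figure D1:**
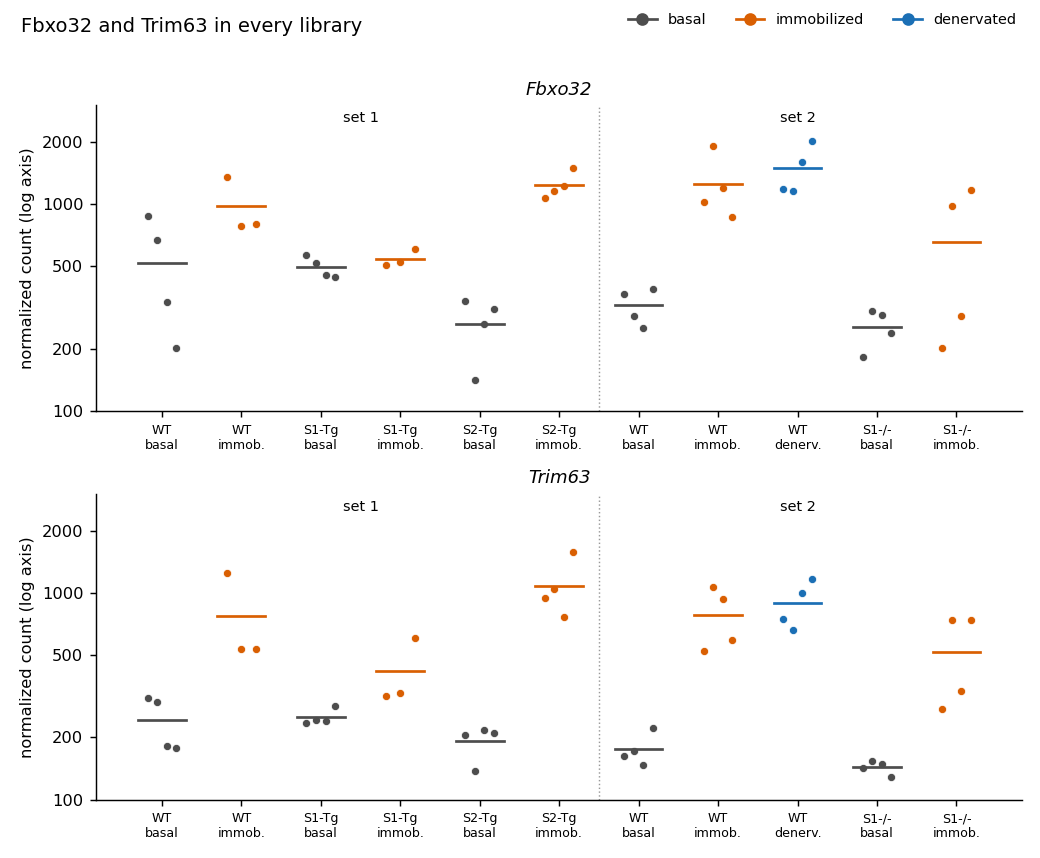
Normalized counts of Fbxo32 and Trim63 (log axis) in each library of the 11 groups, where S1-Tg is Sesn1SkM-Tg, S2-Tg is Sesn2SkM-Tg and S1-/- is Sesn1-/-. Points are libraries and horizontal bars are group means. The 4 denervated libraries lie between 1161 and 2009 for Fbxo32, and immobilized Sesn1-/- libraries split into a low and a high pair.

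In Sesn1SkM-Tg muscle neither gene passed the threshold after immobilization. Fbxo32 was 565, 521, 456 and 444 in basal and 510.4, 523 and 604 in immobilized libraries, a difference of 0.14 with a 95% interval of -0.60 to 0.88 (adjusted p = 0.79). Trim63 was 234, 243, 239 and 285 in basal and 318, 328 and 608 in immobilized libraries. The Trim63 libraries did not overlap, but the difference of 0.67 (95% interval 0.05 to 1.29) had an adjusted p of 0.084. It was called with quantile normalization (0.91, adjusted p = 0.022), with the values rescaled to equal library sums (0.98, 0.023) and with the compared groups fitted alone (0.67, 0.032).

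Sesn2SkM-Tg muscle showed the largest fitted rise of both genes among the 5 immobilized groups. Fbxo32 was 339, 141, 265 and 310.1 in basal and 1075, 1153, 1221 and 1499 in immobilized libraries, and rose by 2.29 (SE 0.33, 4.89-fold, adjusted p = 3e-05). Trim63 was 205, 138, 218 and 209.6 in basal and 947, 1040.2, 768 and 1573 in immobilized libraries, and rose by 2.46 (SE 0.28, 5.48-fold, adjusted p = 2e-06). For neither gene did a basal library come near an immobilized one.

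Immobilized Sesn1-/- muscle split into pairs. Fbxo32 was 183, 305, 292 and 238 in basal Sesn1-/- libraries and 201, 980.2, 288 and 1169 in the libraries labelled immobilized Sesn1-/-, with replicates 1 and 3 inside the basal range. Trim63 was 142, 154, 148 and 129 in basal and 274, 737, 334 and 737 in the immobilized libraries, in which the same replicates were low but still above every basal library. The rise of Trim63 was 1.72 (SE 0.28, 3.29-fold, adjusted p = 5.2e-05). Fbxo32 rose by 1.02 (SE 0.40, 2.03-fold, adjusted p = 0.049), a call lost without any 1 of basal replicates 1 (0.87, adjusted p = 0.13), 2 (1.12, 0.057), 3 (1.10, 0.061) and 4 (1.00, 0.090) or immobilized replicates 2 (0.71, 0.19) and 4 (0.62, 0.21). It was also lost with no filter on low values (adjusted p = 0.051), with quantile normalization (0.97, 0.065), without a trend (0.065) and with the compared groups fitted alone (0.13). Without the library labelled Sesn1-/- immobilized replicate 1, the rise of Fbxo32 was 1.47 (adjusted p = 0.0029) and that of Trim63 1.98 (adjusted p = 8.8e-06). The Sesn1 value of that library lay above the lowest immobilized WT library.

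Ranked by group mean within set 1, Fbxo32 ran from basal Sesn2SkM-Tg (263 ± 87.5, SD, n = 4) through basal Sesn1SkM-Tg (496 ± 56.9, n = 4), basal WT (521 ± 308, n = 4), immobilized Sesn1SkM-Tg (546 ± 50.5, n = 3) and immobilized WT (979 ± 327, n = 3) to immobilized Sesn2SkM-Tg (1237 ± 185, n = 4). Neighbours in that order overlapped except at the step from basal Sesn2SkM-Tg to basal Sesn1SkM-Tg and at that from immobilized Sesn1SkM-Tg to immobilized WT. In set 2 the order was basal Sesn1-/- (255 ± 55.9), basal WT (324 ± 65.2), immobilized Sesn1-/- (659 ± 487), immobilized WT (1246 ± 460.2) and denervated WT (1488 ± 401), each n = 4, and all neighbours overlapped. Trim63 ran in set 1 from basal Sesn2SkM-Tg (193 ± 37.1) through basal WT (242 ± 70.7) and basal Sesn1SkM-Tg (250.3 ± 23.4) to immobilized Sesn1SkM-Tg (418 ± 165), WT (773 ± 412) and Sesn2SkM-Tg (1082 ± 346), and the only neighbours without overlap were the basal and immobilized Sesn1SkM-Tg groups. In set 2 it ran from basal Sesn1-/- (143 ± 10.48) and basal WT (176 ± 32.2) to immobilized Sesn1-/- (520.3 ± 251), immobilized WT (780.0 ± 266) and denervated WT (896 ± 235), with a gap only between basal WT and immobilized Sesn1-/-.

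Of the other F-box genes, Fbxo30 rose with denervation. It was 17.9, 15.6, 15.0 and 17.1 in basal WT muscle of set 2, 25.5, 24.5, 35.8 and 21.6 after immobilization and 36.9, 34.7, 33.9 and 51.2 after denervation. Neither treated group overlapped the basal one. Its rise was 1.19 (SE 0.16, 2.28-fold, adjusted p = 1.6e-06) after denervation and 0.66 (SE 0.16, adjusted p = 0.0025) after immobilization. Denervated muscle was above immobilized muscle by 0.53 (adjusted p = 0.0099), a call lost without denervated replicate 4 (0.40, adjusted p = 0.050) and with both sets in the fit (adjusted p = 0.089). In Sesn1-/- muscle Fbxo30 was 14.4, 10.7, 15.1 and 16.2 in basal and 32.0, 29.7, 23.5 and 24.4 in immobilized libraries, a rise of 0.91 (adjusted p = 9.7e-05) in which replicates 1 and 3 were not the low pair.

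Set 1 gave less for Fbxo30. It was 24.0, 26.2, 25.0 and 9.48 in basal and 34.5, 20.4 and 24.9 in immobilized WT libraries, which overlapped (0.38, adjusted p = 0.38), and 20.9, 23.0, 21.4 and 11.3 against 21.7, 22.4 and 27.5 in Sesn1SkM-Tg muscle (0.34, adjusted p = 0.42). In Sesn2SkM-Tg muscle it was 16.0, 8.50, 15.5 and 19.4 in basal and 24.2, 24.2, 24.3 and 41.8 in immobilized libraries, which did not overlap. It rose there by 0.91 (SE 0.29, adjusted p = 0.021), and the call was lost without basal replicate 2 (0.69, adjusted p = 0.076) or immobilized replicate 4 (0.72, 0.084).

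Fbxo21 and Fbxo31 were each called in a single comparison with the basal state. Fbxo21 was the least abundant of the 10 genes per length, with group means from 8.57 to 12.8, and fell in denervated WT muscle, from 10.6 to 12.1 in basal libraries to 8.04, 9.62, 8.28 and 8.34 (-0.37, SE 0.16, adjusted p = 0.049). That call was lost in 7 of the 8 fits that left out a library, all but the fit without denervated replicate 2, and with no filter on low values, quantile normalization, equal library medians or both sets in the fit (adjusted p from 0.050 to 0.055). With the values rescaled to equal library sums the difference was 0.05 (adjusted p = 0.82). Under that scaling Fbxo21 was called higher in immobilized Sesn2SkM-Tg muscle (0.55, adjusted p = 0.011, against 0.27 and no call). Fbxo31 had group means from 105 to 164 and fell in immobilized Sesn1SkM-Tg muscle, from 162, 149, 160 and 185 to 110, 126 and 79.8 (-0.66, SE 0.15, adjusted p = 0.0019), or -0.35 (adjusted p = 0.056) at equal library sums, where it was instead called higher in immobilized WT muscle of set 1 (0.42, adjusted p = 0.025, against 0.08 and no call). In the 4 immobilized Sesn1-/- libraries Fbxo31 was 91.3, 153, 98.2 and 218, with the low and high pairs seen for Fbxo32.

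The MuRF genes moved in different directions. Trim55 fell in all 6 comparisons with basal muscle, and in each of them every treated library was below every basal one. In WT muscle of set 2 it was 42.3, 41.9, 44.6 and 51.2 in basal, 31.2, 36.5, 22.1 and 34.6 in immobilized and 22.7, 21.0, 25.5 and 22.2 in denervated libraries. It fell by 0.54 (SE 0.14, adjusted p = 0.0053) after immobilization and by 0.95 (SE 0.14, adjusted p = 7.8e-06) after denervation. Denervated was below immobilized muscle by -0.41 (adjusted p = 0.025), a call lost at equal library sums (-0.08, adjusted p = 0.67) and without denervated replicate 2 (adjusted p = 0.070) or 4 (0.053) or immobilized replicate 1 (0.053), 2 (0.089) or 4 (0.077). The 6 falls from the basal level were called under every setting tried, including equal library sums and each fit that left out a library.

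In set 1 the fall of Trim55 was larger. WT libraries held 45.4, 46.8, 44.2 and 53.3 in basal muscle and 24.3, 18.9 and 17.6 in immobilized muscle (-1.20, SE 0.13, adjusted p = 7.6e-06). Sesn1SkM-Tg libraries held 45.5, 41.6, 44.3 and 50.2 against 25.2, 21.3 and 18.0 (-1.05, adjusted p = 1.9e-05), and Sesn2SkM-Tg libraries 47.8, 39.1, 41.1 and 41.0 against 23.6, 21.6, 26.9 and 21.4 (-0.83, adjusted p = 4.6e-05). The basal ranges of the 3 genotypes overlapped each other, and so did the immobilized ranges. Sesn1-/- libraries held 46.8, 38.7, 37.8 and 51.5 in basal muscle and 31.7, 22.7, 31.4 and 31.0 in immobilized muscle (-0.57, adjusted p = 0.0031). The difference between the WT sets was 0.66 (SE 0.20, 95% interval 0.26 to 1.06, adjusted p = 0.036), the only one of the 10 genes called there, against 6.2% of all genes. It was lost with quantile normalization (0.55, adjusted p = 0.091), at equal library sums (0.46, 0.15), with the compared groups fitted alone (0.66, 0.092) and in 10 of 15 fits that left out a library (adjusted p from 0.052 to 0.14). Whether a feature of the sequencing sets moved with it cannot be told apart from the immobilization itself.

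Trim54 rose with immobilization in set 2 and did not pass the threshold elsewhere. It was 322, 282, 276 and 358 in basal, 475, 609, 493 and 397 in immobilized and 317, 346, 362 and 387 in denervated WT libraries. Immobilized libraries were all above the basal and the denervated ones, which overlapped each other. The rise after immobilization was 0.66 (SE 0.11, adjusted p = 0.0001) and denervated was below immobilized muscle by -0.47 (adjusted p = 0.0019). The denervated difference from basal of 0.19 (adjusted p = 0.15) was called with quantile normalization (0.46, adjusted p = 0.00079) and at equal library sums (0.66, 2.6e-05), and under these settings the difference between treatments was lost (-0.21, adjusted p = 0.11 and -0.13, 0.36). In Sesn1-/- muscle Trim54 was 339.9, 309, 299 and 297 in basal and 471, 435, 393 and 463 in immobilized libraries, a rise of 0.50 (adjusted p = 0.0013). In set 1 its group means were 336 ± 28.4 and 375 ± 45.3 in basal and immobilized WT, 390.4 ± 36.8 and 333 ± 67.7 in Sesn1SkM-Tg and 424 ± 75.5 and 496 ± 74.3 in Sesn2SkM-Tg muscle, with none called. The WT and Sesn2SkM-Tg differences were called with quantile normalization (0.48 and 0.46) and at equal library sums (0.50 and 0.54).

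Divided by exonic length, Trim54 was the most abundant of the 10 genes in basal muscle. Trim63 had the highest mean after denervation and, after immobilization, in WT muscle of set 1 and in Sesn2SkM-Tg muscle. In WT muscle of set 2 the level of Trim54 per kilobase was 215.6 ± 26.7 in basal, 343.7 ± 60.8 in immobilized and 245.5 ± 20.5 in denervated libraries (SD, n = 4). That of Trim63 was 62.1 ± 11.3, 274.4 ± 93.6 and 315.1 ± 82.6, and that of Trim55 16.9 ± 1.62, 11.7 ± 2.39 and 8.59 ± 0.706. Trim63 therefore made up 21.0% ± 1.64 of the summed MuRF level per kilobase in basal, 42.8% ± 6.00 in immobilized and 54.7% ± 5.03 in denervated muscle, and Trim55 5.77% ± 0.474, 1.94% ± 0.613 and 1.54% ± 0.230. The mean share of Trim63 went from 25.0% to 48.2% with immobilization in WT muscle of set 1, from 23.4% to 37.5% in Sesn1SkM-Tg, from 18.3% to 51.1% in Sesn2SkM-Tg and from 17.8% to 35.1% in Sesn1-/- muscle. These shares use summed exon lengths of the annotation and do not depend on how a library was scaled. Of the other genes, basal WT levels per kilobase in set 2 were 46.5 for Fbxo32, 40.4 for Nedd4 and 24.6 for Fbxo31, all above Trim55 and below Trim63, and between 2.06 and 4.37 for Ube4b, Trim32, Fbxo30 and Fbxo21.

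Trim32 fell in WT and Sesn1SkM-Tg muscle of set 1. It was 11.4, 11.2, 10.4 and 11.4 in basal and 7.55, 7.20 and 6.94 in immobilized WT libraries (-0.55, SE 0.14, adjusted p = 0.0068), with no overlap, and went from 12.0 ± 1.06 to 8.03 ± 0.986 in Sesn1SkM-Tg muscle (-0.53, adjusted p = 0.0072). Both calls were lost at equal library sums (-0.25, adjusted p = 0.26). In WT muscle of set 2 Trim32 was 9.89, 8.37, 10.95 and 12.7 in basal and 6.66, 10.4, 7.57 and 6.50 in immobilized libraries, which overlapped. Its fall there of 0.39 (adjusted p = 0.039) was lost without basal replicate 1 (adjusted p = 0.057), 3 (0.088) or 4 (0.13) or immobilized replicate 1 (0.11), 3 (0.074) or 4 (0.11), and at equal library sums (-0.28, 0.15). It was not called in Sesn2SkM-Tg (-0.24, adjusted p = 0.18), Sesn1-/- (-0.08) or denervated muscle (-0.15, adjusted p = 0.38).

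Ube4b rose in set 2 and in Sesn2SkM-Tg muscle. It was 36.1, 26.3, 29.9 and 31.3 in basal, 44.1, 59.3, 51.0 and 43.0 in immobilized and 51.4, 61.3, 54.8 and 56.1 in denervated WT libraries of set 2, without overlap of basal and treated muscle. The rise was 0.65 (SE 0.14, adjusted p = 0.0012) after immobilization and 0.84 (SE 0.14, adjusted p = 3.5e-05) after denervation. In Sesn1-/- muscle it was 27.3, 30.8, 30.2 and 30.6 in basal and 47.3, 47.5, 28.2 and 48.4 in immobilized libraries (0.48, adjusted p = 0.010), of which replicate 3 stayed in the basal range. In Sesn2SkM-Tg muscle it was 35.0, 28.0, 41.2 and 35.6 against 45.0, 56.2, 41.2 and 59.4 (0.51, adjusted p = 0.0077). WT (0.06, adjusted p = 0.80) and Sesn1SkM-Tg muscle (0.13) of set 1 gave no call. Nedd4 had group means from 329 to 466 and a range over all libraries of 251 to 522, and was not called in any of the 17 comparisons. Its immobilized mean was below the basal one in all 5 comparisons (-0.16 to -0.30, adjusted p from 0.14 to 0.46), without overlap of the libraries in Sesn1SkM-Tg muscle. A fall was called without basal replicate 2 in Sesn2SkM-Tg (-0.34, adjusted p = 0.041) and without immobilized replicate 4 in WT muscle of set 2 (-0.31, adjusted p = 0.043). Its denervated difference of -0.05 turned to 0.32 (adjusted p = 0.039) with quantile normalization and 0.42 (adjusted p = 0.0034) at equal library sums.

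**Figure D2:**
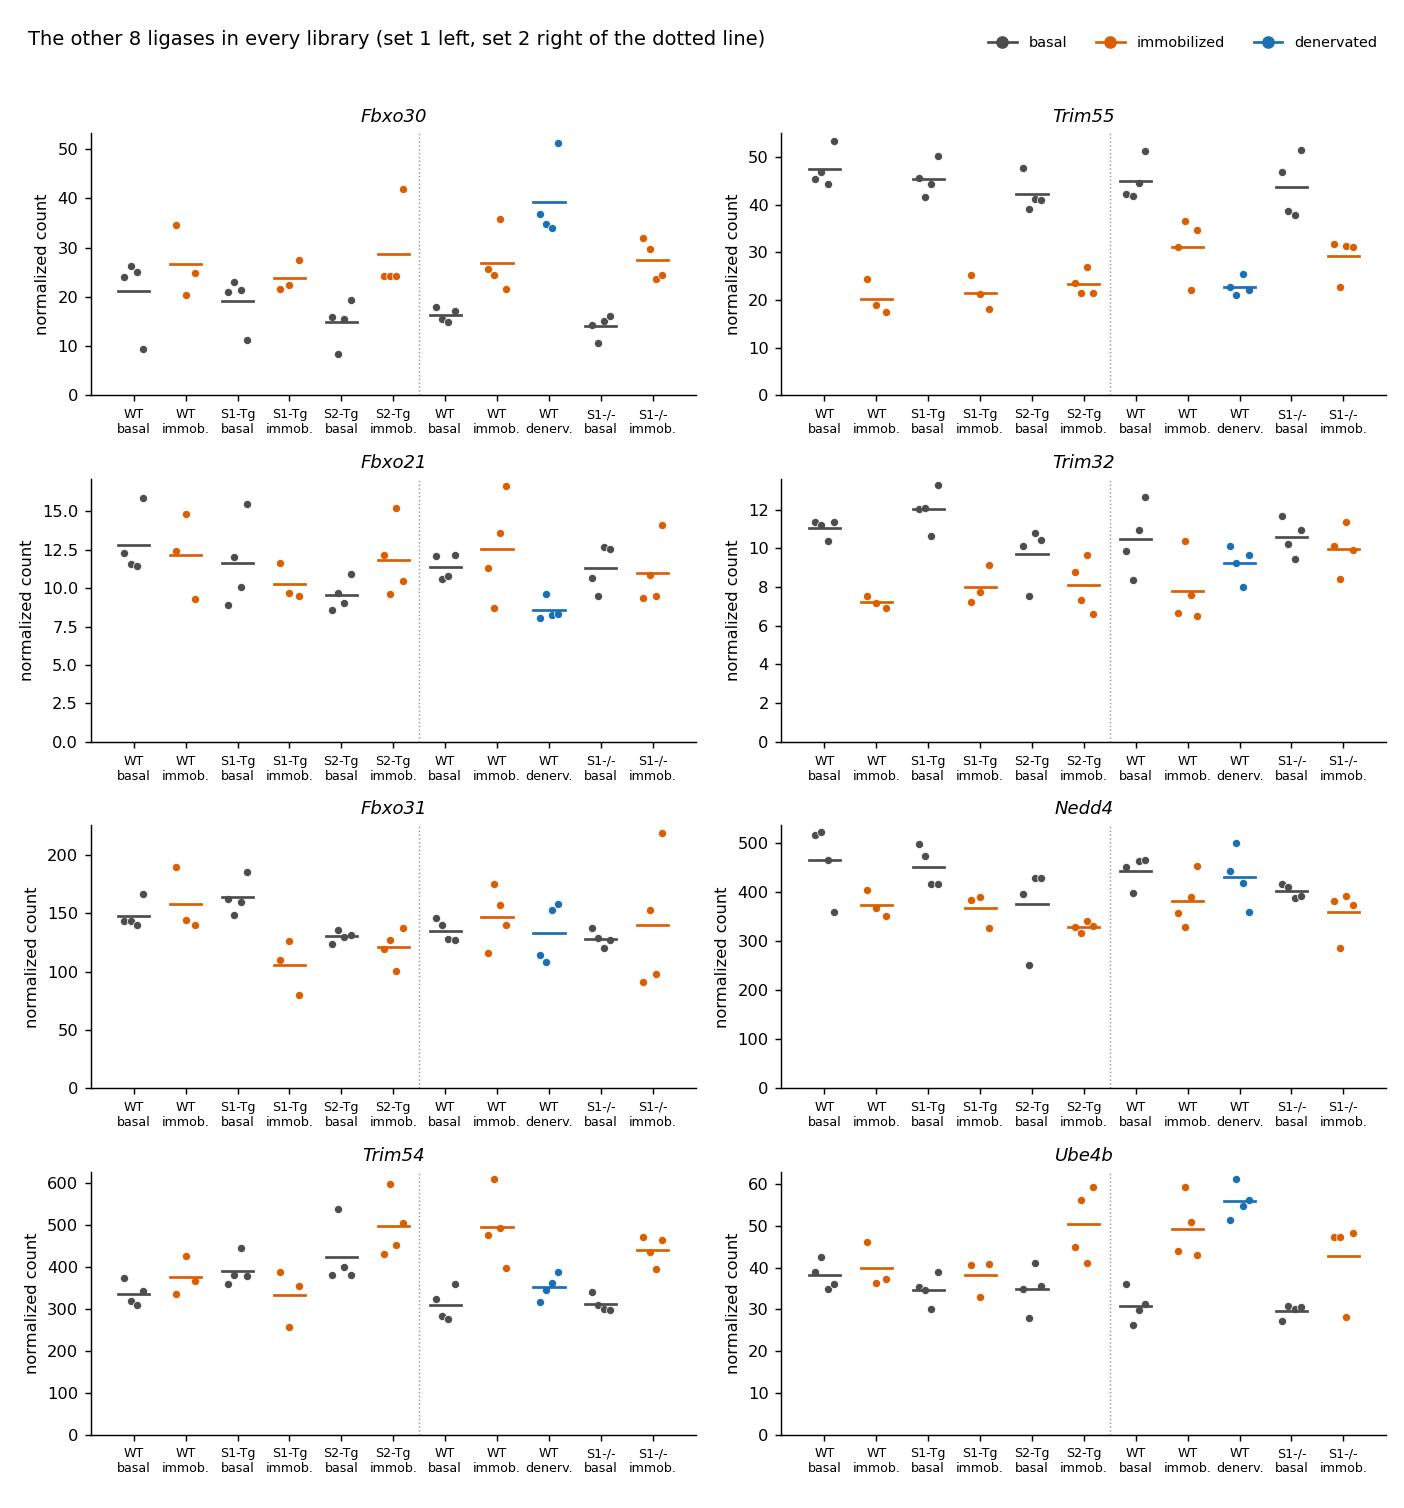
Normalized counts of the other 8 genes (linear axes from 0) in each library, with groups named as in the plot of Fbxo32 and Trim63. Points are libraries and horizontal bars are group means. Trim55 is lower in every immobilized or denervated library than in the basal libraries of its genotype and set, while Nedd4 stays between 251 and 522.

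Counted over the 10 genes, 4 were called in immobilized WT muscle of set 1, where 29.3% of all genes were called. There, 2 were higher, against 14.9% of all genes, and 2 lower, against 14.5%. In set 2, 7 were called (33.9% of all genes), 5 of them higher (16.2%) and 2 lower (17.7%). In Sesn1SkM-Tg muscle 3 were called (34.7%), all lower (16.5%; 18.2% of all genes were higher). In Sesn2SkM-Tg muscle 5 were called (30.7%), 4 higher (15% of all genes) and 1 lower (15.7%), and in Sesn1-/- muscle 6 (37.1%), 5 higher (17.2%) and 1 lower (19.9%). Denervation called 6, a share close to the 55.5% of all genes, 4 of them higher (27.8%) and 2 lower (27.7%). Between denervated and immobilized muscle 4 were called (38.9%), 1 higher (20.5%) and 3 lower (18.4%). The median change of the 10 genes was 0.07 in set 1 WT, -0.19 in Sesn1SkM-Tg, 0.25 in Sesn2SkM-Tg, 0.38 in set 2 WT, 0.26 in Sesn1-/- and 0.08 in denervated muscle, and the median of all genes lay between -0.03 and 0.00 in each. The immobilized and denervated WT muscles of set 2 are compared with the same basal libraries, so their counts are not independent of each other.

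**Figure D3:**
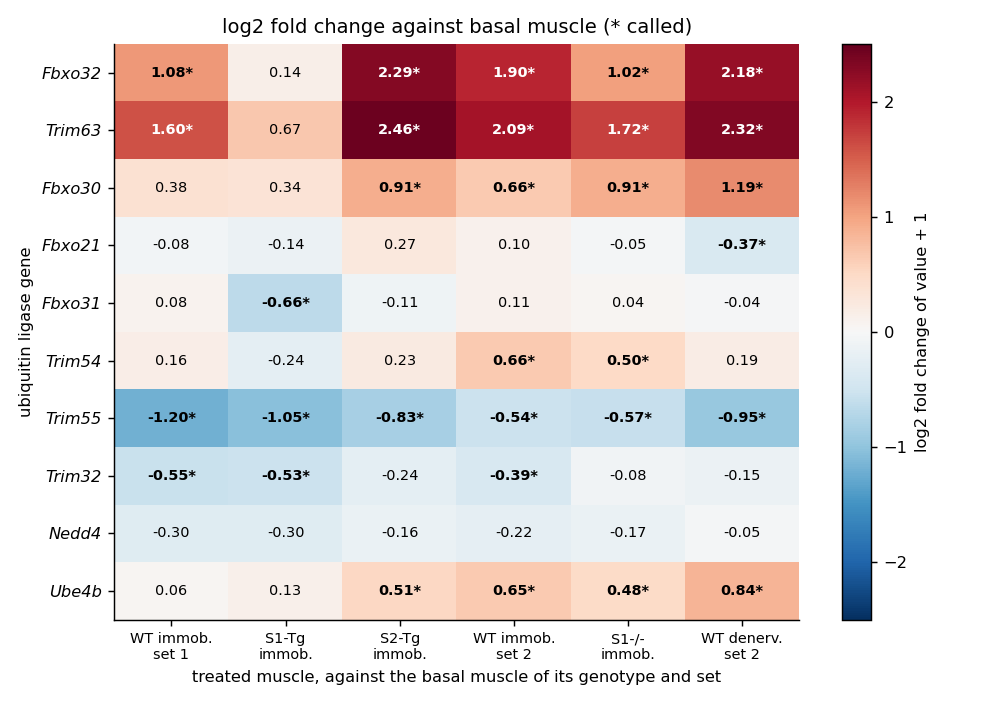
Change of the 10 genes in log2(value + 1), as colour, in the 6 comparisons with basal muscle, with an asterisk on each called gene. Fbxo32 and Trim63 carry the largest rises, up to 2.29 and 2.46 in Sesn2SkM-Tg muscle, and Trim55 is the gene called in all 6 comparisons with basal muscle.

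Whether sestrin level altered these genes was asked by comparing each genotype with the WT muscle of its set and state. No gene of the 10 was called by limma in any of the 6 comparisons, in which 0.0292% (basal) and 0.0073% (immobilized) of all genes were called for Sesn1SkM-Tg, 2.5% and 2.94% for Sesn2SkM-Tg, and 0.147% and 0.947% for Sesn1-/- muscle. At an unadjusted p under 0.05 there were 0 and 3 of the 10 genes for Sesn1SkM-Tg, 4 and 3 for Sesn2SkM-Tg, and 0 and 3 for Sesn1-/- muscle, against 3.63% and 3.04%, 15.6% and 19.2%, and 4.64% and 14.1% of all genes. In immobilized Sesn1SkM-Tg muscle Fbxo32 differed from WT by -0.80 (95% interval -1.59 to -0.01), Trim63 by -0.83 (-1.49 to -0.17) and Fbxo31 by -0.59, each with an adjusted p of about 1. Basal Sesn2SkM-Tg muscle was lower in Fbxo32 by -0.83 (95% interval -1.52 to -0.15, adjusted p = 0.21), which without WT basal replicate 4 was -1.22 and called (adjusted p = 0.014). In immobilized Sesn2SkM-Tg muscle the difference of Trim63 was 0.56 (95% interval -0.06 to 1.17, adjusted p = 0.32), and that of Fbxo31 was -0.38 (adjusted p = 0.16), called only with quantile normalization (-0.49, 0.047).

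In immobilized muscle labelled Sesn1-/-, Fbxo32 differed from WT by -1.23 (95% interval -2.06 to -0.40, adjusted p = 0.15) and Trim63 by -0.66 (95% interval -1.24 to -0.08, adjusted p = 0.28). The values are those of the split replicates, of which 1 and 3 were low. Without Sesn1-/- immobilized replicate 4 the Fbxo32 difference was called (-1.63, adjusted p = 0.017). Without replicate 1, the immobilized Sesn1-/- library with the highest Sesn1, the differences were -0.78 for Fbxo32 (adjusted p = 0.46) and -0.40 for Trim63 (adjusted p = 0.65). Macrophage and leukocyte markers summed to 50.2 to 299 in these immobilized libraries against 94.5 to 190 in WT, and muscle fiber markers to 73218 to 105865 against 92505 to 96440. The lowest macrophage and the highest fiber sum were both those of replicate 3, whereas replicate 1, also low in Fbxo32, had 164 and 82525. The part of these markers in the split was not tested.

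The immobilization effect of each genotype was then set against that of WT muscle in a direct test. None of the 10 genes was called by limma, where 0, 1 and 3 genes of the whole table were called for Sesn1SkM-Tg, Sesn2SkM-Tg and Sesn1-/- muscle (0%, 0.0073% and 0.022%). At an unadjusted p under 0.05 there were 401, 1008 and 1087 genes, among them 2, 3 and 0 of the 10. The effect on Fbxo32 was -0.94 relative to WT in Sesn1SkM-Tg (95% interval -1.99 to 0.10), 1.21 in Sesn2SkM-Tg (0.20 to 2.22) and -0.87 in Sesn1-/- muscle (-2.05 to 0.30). For Trim63 it was -0.92 (-1.80 to -0.05), 0.86 (0.01 to 1.701) and -0.37 (-1.19 to 0.44). The adjusted p-values were 1, 0.61 and 0.75 for Fbxo32 and 1, 0.67 and 0.86 for Trim63. The fitted values for the transgenic lines thus lay on opposite sides of WT, but none was called, and their intervals include 0 or reach close to it. The uneven basal WT libraries of set 1 are in both contrasts.

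**Figure D4:**
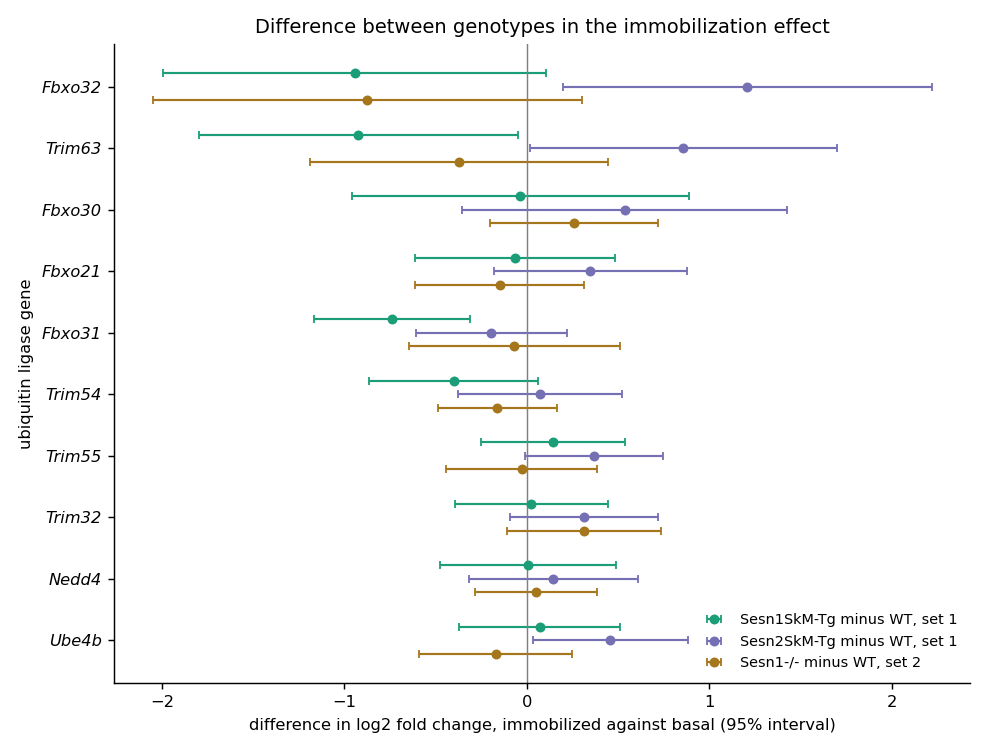
Difference between each genotype and WT in the immobilization effect of the 10 genes, in log2(value + 1), with 95% intervals as bars. For Fbxo32 the points lie at -0.94 for Sesn1SkM-Tg, 1.21 for Sesn2SkM-Tg and -0.87 for Sesn1-/- muscle, and no gene was called after adjustment.

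The question of whether the genes vary together from muscle to muscle was addressed with the deviation of each library from its group mean. Differences between group means thus do not enter, but uneven spread within treated groups does. In set 2 the SD of Fbxo32 in log2(value + 1) was 0.34 in basal and 1.26 in immobilized Sesn1-/- muscle. In WT muscle of that set it was 0.30 and 0.49. Among 90 correlations (45 pairs in each set, permutation within groups, 100000 resamples), 7 passed an adjusted p of 0.05 for Pearson's r and 5 for Spearman's rho, and 16 had an unadjusted p under 0.05. Fbxo32 and Trim63 correlated in set 2 (n = 20, r = 0.91, permutation p = 9e-05, adjusted 0.0041; rho = 0.90, permutation p = 0.00019, adjusted 0.0086) and in set 1 (n = 22, r = 0.71, permutation p = 0.0010, adjusted 0.023; rho = 0.78, permutation p = 0.0026, adjusted 0.046). Without the 2 libraries farthest from the median of Fbxo32, r was 0.87 and 0.74. Pooled over the groups of a set, libraries with more Fbxo32 than their group mean thus tended to have more Trim63. This did not hold within every group. In basal Sesn1SkM-Tg muscle the library with the highest Fbxo32 (565) had the lowest Trim63 (234). In set 1 Fbxo32 further correlated with Fbxo30 (r = 0.77, adjusted permutation p = 0.023, rho = 0.71) and Nedd4 (r = 0.77, adjusted permutation p = 0.047, rho = 0.75), and Trim63 with Ube4b (r = 0.76, adjusted permutation p = 0.0036, rho = 0.81) and Fbxo30 (r = 0.59, adjusted permutation p = 0.049, rho = 0.64). In set 2 the other pair was Trim63 and Fbxo31 (r = 0.87, adjusted permutation p = 0.047, rho = 0.82).

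The correlations were repeated without the group of widest Fbxo32 spread in each set, basal WT in set 1 and immobilized Sesn1-/- in set 2, a choice made after the values were seen. With these fewer libraries 3 of the 90 correlations passed, namely Fbxo32 with Trim63 in set 2 (n = 16, r = 0.81, adjusted permutation p = 0.036), Fbxo32 with Fbxo30 in set 1 (n = 18, r = 0.82, 0.036) and Trim63 with Ube4b in set 1 (r = 0.76, 0.020). Pairs called in set 1 alone had other values in set 2. There r was 0.26 for Fbxo32 with Fbxo30, 0.40 for Trim63 with Fbxo30 and 0.43 for Trim63 with Ube4b. Fbxo32 with Nedd4 had the opposite sign there, at -0.64 against 0.76 in set 1. Trim63 with Fbxo31 was at 0.22 in set 1, and none of these other-set values passed. Fbxo32 with Trim63 in set 1 was then at r = 0.71, as with all libraries, and did not pass (n = 18, adjusted permutation p = 0.13). In this repeat Trim55 gave r values with Fbxo32 of 0.32 in set 1 and 0.02 in set 2. With Trim63 they were 0.04 and -0.02, and none of these passed.

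**Figure D5:**
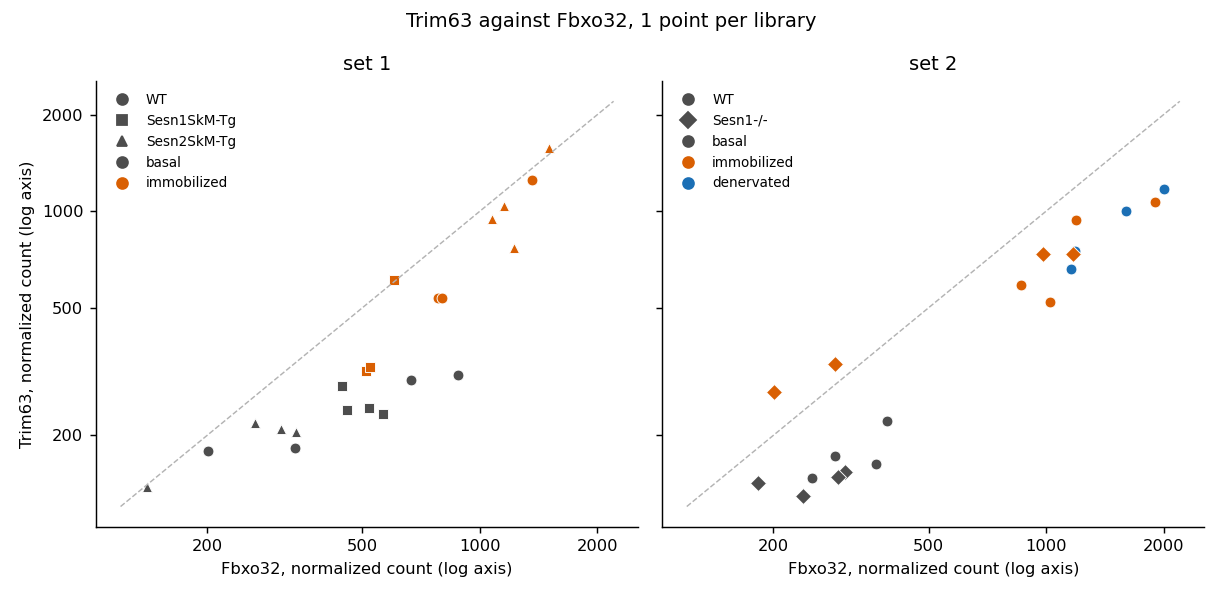
Normalized counts of Trim63 against Fbxo32 in the 42 libraries, on log axes, with a dashed line of equal values. Colour gives the treatment and marker shape the genotype. The few libraries above the line are immobilized Sesn1SkM-Tg, Sesn2SkM-Tg or Sesn1-/- libraries, and the pairs of immobilized Sesn1-/- libraries lie apart on both axes.

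The ratio of Trim63 to Fbxo32 within a library does not depend on scaling. Its geometric mean was 0.546 in basal, 0.627 in immobilized and 0.602 in denervated WT muscle of set 2, and 0.525 and 0.750 in basal and immobilized WT muscle of set 1. The groups overlapped in all 13 comparisons, and no exact permutation test passed. The smallest p was 0.0857, for immobilized against basal Sesn1-/- muscle (a log2 difference of 0.70, adjusted p = 0.557), in a design whose smallest possible p is 0.0286 with 4 libraries against 4, 0.0571 with 3 against 4 and 0.1 with 3 against 3.

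Over the libraries as they stand, groups included, the genes most like Fbxo32 among 13474 were Trim63 (r = 0.90 in set 1 and 0.94 in set 2), Rnf13 (0.88 and 0.89), Ranbp9 (0.87 and 0.89), Armcx5 (0.91 and 0.86) and Usp14 (0.87 and 0.85), ranked by the lower r of the 2 sets. Those most like Trim63 were Atp6v1h (0.90 and 0.91), Fbxo32, Mak16 (0.90 and 0.93), Mknk2 (0.90 and 0.89) and Psma1 (0.89 and 0.93). These r values are over 22 and 20 libraries, share the group differences and are a description. Usp14 encodes a deubiquitinase of the proteasome, Psma1 a subunit of its core and Atp6v1h a subunit of the vacuolar proton pump. Mean Usp14 was 39.0 in basal, 60.8 in immobilized and 83.8 in denervated WT muscle of set 2, and mean Psma1 66.9, 116 and 137.

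Among 17 other E3 ligases described in atrophy, 1 was called higher and 5 lower in immobilized WT muscle of set 1, 6 and 2 in set 2, and 3 and 6 after denervation, with median changes of -0.31, 0.17 and 0.05. Over all genes, 14.9% were called higher and 14.5% lower in the first comparison, 16.2% and 17.7% in the second and 27.8% and 27.7% after denervation, and the counts of this and the next lists stand beside those shares. Fbxl22, an F-box gene of the sarcomere, rose from 2.19 ± 0.271 to 31.2 ± 6.33 in set 1 (3.32, adjusted p = 7.6e-06) and from 2.74 ± 1.03 to 17.4 ± 7.71 in set 2 (2.24, adjusted p = 0.00024). After denervation the largest rise was that of Ubr4, a ligase of the N-degron pathway, from 174 ± 13.3 to 324 ± 35.5 (0.89). Nedd4l, the closest relative of Nedd4, had the largest fall in all 3 comparisons (-0.81, -0.62 and -1.68), from 28.7 ± 6.75 to 8.24 ± 2.10 after denervation.

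Of 11 genes of the SCF core and neddylation, the parts that F-box proteins work with, 1 was called in immobilized WT muscle of set 1 (Cand2, a cullin exchange factor, which fell by 0.77), against 3 in set 2, all higher, and 7 after denervation, 6 of them higher. Cul1, the scaffold of SCF ligases, rose from 88.8 ± 3.77 to 139.6 ± 20.2 in immobilized WT muscle of set 2 (0.64, adjusted p = 8.2e-05). Skp1a, the adaptor that holds the F-box, rose from 183 ± 11.5 to 297 ± 23.5 after denervation (0.69, adjusted p = 3.1e-07), and Dcun1d1, a neddylation factor, fell (-0.57).

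Of 21 genes of ubiquitin and of E1 and E2 enzymes, 3 were called higher and 4 lower in set 1 WT, 5 and 3 in set 2 WT and 11 and 3 in denervated muscle, where the median was 0.33 against -0.03 for all genes. Ubb, a polyubiquitin gene, rose from 791 ± 31.6 to 1626 ± 535 in immobilized muscle of set 2 (0.98, adjusted p = 0.00036), and Rps27a, a ubiquitin fusion gene, rose in set 1 (0.72) and after denervation (1.01). The E2 gene Ube2d1 fell in those comparisons (-0.62 and -1.02), and the E2 gene Ube2n in set 2 (-0.45). Of 11 deubiquitinase and p97 genes, 2 were called higher and 1 lower in set 1 WT, 7 higher in set 2 WT and 5 higher in denervated muscle. Nploc4, a p97 cofactor, rose in set 1 (0.77) and after denervation (1.25, from 81.8 ± 6.92 to 196 ± 15.6), Otud1 in set 2 (2.79) from 11.3 ± 6.41 to 95.4 ± 88.0, and Usp19 fell in set 1 (-0.62).

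Of 20 known substrates of the ligases, 4 were called higher and 13 lower after denervation, where 27.8% and 27.7% of all genes were, with a median of -0.85 against -0.03 for all genes. In set 1 WT 1 and 5 were called (median -0.41) and in set 2 WT 3 and 4 (-0.07). Myod1, a myogenic factor degraded through atrogin-1, rose from 21.4 ± 1.58 to 104.2 ± 10.48 after denervation (2.23, adjusted p = 6.3e-09), and Myh2, a fast myosin, fell there (-2.60) and rose with immobilization in set 2 (1.12). Vim rose (1.43) and Ttn, which encodes titin, fell (-1.03) in set 1, and Mybpc2 fell in set 2 (-0.68). Of the 20 substrates 6 are also the muscle fiber markers, whose sum was lower in denervated libraries and in immobilized libraries of set 1, and Vim is expressed by leukocytes and fibroblasts, whose markers were higher in set 1, and the part of these in the counts was not tested. Of 19 transcription regulators of the ligases, 3 were called higher and 6 lower in set 1 WT, 5 and 5 in set 2 WT, and 8 and 5 after denervation. Myog, the myogenin gene, rose from 1.22 ± 0.349 to 104.1 ± 16.2 after denervation (5.57, adjusted p = 2.3e-13) and by 1.74 in set 1. Dach2, a repressor of Myog, fell in set 2 (-1.73) and after denervation (-2.35), Hdac4 rose with immobilization in set 2 (0.98), and Foxo6 fell in set 1 (-1.24). Genes called higher and lower were also counted in the other immobilized genotypes for other E3 ligases, substrates and regulators. In Sesn1SkM-Tg muscle they numbered 1 and 7, 3 and 6, and 1 and 7, beside 18.2% and 16.5% of all genes. In Sesn2SkM-Tg muscle 4 other E3 ligases were called, all lower, with 1 and 8 substrates and 4 and 4 regulators, beside 15% and 15.7%. In Sesn1-/- muscle they numbered 5 and 4, 1 and 2, and 6 and 6, beside 17.2% and 19.9%.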

How the data were processed

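RNAseq of TA muscle was used, in 42 libraries of 11 groups, whose set, genotype and treatment stand in the labels. The 3 days of immobilization stand in the study's figure legends, and the day of denervation was taken to be the same. The members and gene lists were chosen with earlier results of these data known. The authors trimmed reads with Cutadapt 1.7.1, estimated gene counts with RSEM 1.2.20 on mouse transcripts (GRCm38) and normalized them with limma, and the submitters' processing notes also name FastQC and edgeR. The signal values they deposited are normalized counts, not log-transformed and close to CPM in size. Whole reads could not be recovered from them, so the depth is unknown and no count test or counting interval was possible.

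Each set was fitted alone with a coefficient per group on log2(value + 1), in R 4.3.3 with limma 3.58.1 (eBayes with a trend), over genes that reached 1 in any library of the set (13705 in set 1, 13629 in set 2, 13763 over both sets for the difference between sets). The log2(value + 1) scale understates the change of low genes. P-values are 2-sided and Benjamini-Hochberg adjusted over all genes of a comparison, and they measure the spread between samples of a group. A call needed an adjusted p under 0.05 and a change of 0.25 or more in size. Comparisons share the WT libraries of a set. How the authors combined the sets is not given in the sources used here, so levels were compared within a set. Ratios were compared by exact permutation tests, and correlations by 100000 permutations within groups (Python 3.11.15, scipy 1.17.1). The fit was tested on simulated data.

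Named genes are the 10 members, the called gene with the largest rise and fall of each pathway list in the 3 WT comparisons with basal muscle, the 5 genes most like Fbxo32 and Trim63, and Sesn1 and Sesn2. Positions and exon lengths come from GENCODE M21 (GRCm38), and promoters from RefSeq (GRCm38.p6). Figures were drawn with matplotlib 3.10.9. Replicate numbers were not used as pairs, because same-numbered libraries did not deviate together. Alternatives were another or no filter on low values, a pseudocount of 0.1, 3 other normalizations, no trend, a fit of the compared groups alone or of both sets, a replicate block, no fold change threshold and each library left out.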

Additional observations from a re-analysis of the deposited data

Results flagged for a closer look

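Single libraries stood apart within their group of 4 in 10 of the 99 groups of values tested, judged by the gap to the nearest library divided by the range (threshold 0.829). Chance alone gives about 1 in 20, or 5 of 99. In basal Sesn2SkM-Tg muscle, replicate 2 was lowest for Trim63 (138, the others 205 to 218) and highest for Trim54 (536, the others 379 to 399), and it was also the library with the lowest Fbxo32, at 141. In basal WT muscle of set 1, replicate 4 was lowest for Fbxo30 (9.48, the others 24.0 to 26.2) and highest for Fbxo31 (166, the others 139.6 to 143).

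Replicate 4 was highest for Fbxo30 in immobilized Sesn2SkM-Tg muscle (41.8, the others 24.2 to 24.3) and in denervated WT muscle (51.2, the others 33.9 to 36.9). In Sesn1-/- muscle, immobilized replicate 2 was lowest for Trim55 (22.7, the others 31.0 to 31.7), immobilized replicate 3 was lowest for Ube4b (28.2, the others 47.3 to 48.4) and basal replicate 1 was lowest for Ube4b (27.3, the others 30.2 to 30.8). The ratio of Trim63 to Fbxo32 was highest in basal Sesn1-/- replicate 1 (0.774, the others 0.504 to 0.544).

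The immobilization effect on Trim55 in WT muscle differed between the sets by 0.66 on the log2(value + 1) scale (limma, adjusted p = 0.036), with every immobilized library below every basal one in both sets.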

How the results depend on the processing

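Over 17 comparisons the 10 genes gave 170 values, and 3450 alternatives of them were computed. Of these, 3352 kept the direction and the side of the threshold, 69 lost the call and 26 gained one. A further 3 reversed, all in denervated against basal muscle, namely Nedd4 with quantile normalization (0.32) and at equal library sums (0.42), and Fbxo21 at equal library sums (0.051). Scaling to equal library sums moved the median of all genes by 0.37 in denervated, 0.27, 0.26 and 0.25 in immobilized WT, Sesn1SkM-Tg and Sesn2SkM-Tg muscle of set 1, 0.28 between denervated and immobilized muscle and -0.18 between the sets. It raised the share of called genes that were higher from 50.1% to 77.1% in denervated, from 50.7% to 84.7%, 52.3% to 82.6% and 48.9% to 80.4% in those groups of set 1, from 47.7% to 64.3% and 46.4% to 60.1% in WT and Sesn1-/- muscle of set 2, and from 52.7% to 82.3% between denervated and immobilized muscle, and lowered it from 51% to 15.1% between the sets, 56.1% to 43.2% for immobilized Sesn2SkM-Tg and 55.8% to 44.8% for immobilized Sesn1-/- against WT. For basal Sesn2SkM-Tg against WT the share went from 60.1% to 50% with equal medians.

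Fitting the compared groups alone, 2665 genes were called in immobilized WT muscle of set 1 (4018 with all groups), 2 in basal Sesn1SkM-Tg against WT (4), 93 in basal Sesn2SkM-Tg against WT (343) and 14 in immobilized Sesn1-/- against WT (129). With both sets in the fit these comparisons with WT gave 9, 623 and 71 genes, immobilized Sesn1SkM-Tg against WT gave 3 (1) and immobilized Sesn2SkM-Tg against WT 773 (403). Quantile normalization gave 2 genes for Sesn1SkM-Tg against WT in each state and 1 of the 10 genes for immobilized Sesn2SkM-Tg against WT (none before). The difference in immobilization effect gave 2 genes for Sesn2SkM-Tg (1) without a trend, with only the compared groups and with both sets, and for Sesn1-/- (3) 5 genes with quantile normalization and equal medians and 0 without a trend, with only the compared groups and with both sets. The difference between the sets called 0 of the 10 genes (1) with quantile normalization, at equal library sums and with only the compared groups. Without the group of widest Fbxo32 spread in each set, 3 correlations passed (7).

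Leaving out each library in turn gave 2020 to 4026 genes in immobilized WT muscle of set 1, lowest without WT immobilized replicate 3, and 2791 to 4979 in Sesn1SkM-Tg muscle. It gave 2 to 4 of the 10 genes between denervated and immobilized muscle, 2 to 3 and 1 to 3 genes for Sesn1SkM-Tg against WT in the basal and immobilized state, 156 to 1027 and 112 to 316 for Sesn2SkM-Tg, with 0 to 1 of the 10 in the basal state, and 40 to 608 for immobilized Sesn1-/- against WT, with 0 to 1 of the 10. The differences in immobilization effect ranged over 0 to 1, 0 to 5 and 0 to 14 genes, and that between the sets over 375 to 1097 genes and 0 to 2 of the 10. The cause of these changes was not tested, beyond the smaller number of samples.

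The replicate numbers are shared by all groups, and deviations of same-numbered libraries correlated at -0.45 to 0.53, with no comparison in which every number was above 0.1. With the replicate number as a block, immobilized Sesn2SkM-Tg against WT called 229 genes (403), the differences in immobilization effect 0 for Sesn2SkM-Tg and 0 for Sesn1-/-, and WT immobilization in set 2 6 of the 10 genes (7). The depth of the libraries is unknown, so differences of low genes such as Fbxo21 and Trim32 cannot be set against counting error.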
